A study of Mus musculus with 24 samples.

Results

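Expression of 9 genes that encode transcription factors of the macrophage lineage was followed through 24 RNA-seq libraries of mouse macrophages: Spi1 (which encodes PU.1), Cebpa, Cebpb, Cebpd, Maf, Mitf, Bhlhe40, Bhlhe41 and Zeb2. They were taken by symbol from the 56691 genes listed for each cell type, and all 9 were found in both. The libraries came from RAW264.7 cells, a macrophage-like line derived from a mouse leukemia, and from bone marrow-derived macrophages (BMDMs), which are primary cells grown from marrow in medium that supplies the growth factor M-CSF. Each cell type gave 4 groups of 3 libraries: wild type with PBS, Olfml3 knockout with PBS, wild type with LPS and Olfml3 knockout with LPS. LPS, the bacterial cell wall component that activates the receptor TLR4, was given at 100 ng/mL for 4 h. The question was how the loss of Olfml3, which encodes a secreted glycoprotein, and a short LPS exposure bore on macrophage transcription.

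Each arm has its own limits as a model. The RAW264.7 knockout was made with a lentiviral CRISPR guide and isolated by sorting single cells. Whether its libraries came from 1 clone was not stated, and a difference from wild type cannot be told apart from a difference between clones. The BMDMs came from male mice 8 weeks old on the C57BL/6 background, with a global CRISPR knockout in the knockout arm, and were cultured for 6 days with supernatant of L929 cells. The study calls the libraries of a group biological replicates, but does not say whether they came from separate cultures or animals. The p-values measure the spread between these libraries. Groups were taken from the sample titles, since the genotype tag contradicted the title in 12 of the 24 samples.

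These factors work together to make and keep a macrophage. PU.1, an ETS-domain protein, opens the enhancers of myeloid cells, and the C/EBP proteins, which are basic leucine zipper factors, bind beside it: C/EBP alpha is tied to differentiation and exit from the cell cycle, whereas C/EBP beta and C/EBP delta are known as factors of the acute inflammatory response. MAF restrains self-renewal of macrophages, and MITF, a basic helix-loop-helix leucine zipper protein, controls lysosomal and osteoclast genes with its relatives TFEB, TFE3 and TFEC. BHLHE40 and BHLHE41 are closely related repressors that bind E-boxes and act in circadian and immune control. ZEB2 is a zinc finger repressor that holds myeloid cells to their identity.

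On the mouse build GRCm38, the genes lay at chr2:91082390-91115756 on the plus strand (Spi1), chr7:35119293-35121928 plus (Cebpa), chr2:167688915-167690418 plus (Cebpb) and chr16:15887286-15891031 plus (Cebpd). The others lay at chr8:115682942-115707794 minus (Maf), chr6:97807052-98021349 plus (Mitf), chr6:108660629-108666925 plus (Bhlhe40), chr6:145858243-145865558 minus (Bhlhe41) and chr2:44983632-45117395 minus (Zeb2). Their annotated exonic lengths ran from 1504 bases for Cebpb to 20203 for Zeb2. Cebpb overlaps Peds1 on the other strand, Cebpd overlaps Spidr and Zeb2 overlaps Zeb2os. Whether the counting used strand was not stated, so reads from these pairs cannot be told apart with certainty. Over the 12 BMDM libraries Cebpb had 13498 counts beside 24347 for Peds1, Cebpd had 6830 beside 4318 for Spidr and Zeb2 had 156599 beside 8352 for Zeb2os. In RAW264.7 cells the same pairs had 8777 and 11193, 13787 and 6658, and 57550 and 777 counts.

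RefSeq promoters (GRCm38.p6, from 250 bases before to 50 after a start site) were at hand for 5 of the 9 genes, with 10 windows in all. Windows for Spi1, Cebpd, Maf and Bhlhe40 were not used here. The 4 windows printed here, for Zeb2 the first of 4, belong to genes with some of the largest changes described further on, with matches to 8 motif strings in capitals: the E-box CACGTG, the E2-box CACCTG bound by ZEB proteins, the PU.1 core GAGGAA, the C/EBP string TTNCNNAA, the CRE TGACGTCA, the shorter TGACG (which lies inside it), the kappaB string GGGNNTTCC and the AP-1 string TGANTCA. Both strands were searched.
Cebpa, chr7:35119043-35119342, plus strand: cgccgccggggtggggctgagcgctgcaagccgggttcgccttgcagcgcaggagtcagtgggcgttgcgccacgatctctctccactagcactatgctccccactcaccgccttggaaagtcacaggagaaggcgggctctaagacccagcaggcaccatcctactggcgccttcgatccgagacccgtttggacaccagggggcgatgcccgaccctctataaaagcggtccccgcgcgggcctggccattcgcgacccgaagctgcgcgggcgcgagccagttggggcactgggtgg
Cebpb, chr2:167688665-167688964, plus strand: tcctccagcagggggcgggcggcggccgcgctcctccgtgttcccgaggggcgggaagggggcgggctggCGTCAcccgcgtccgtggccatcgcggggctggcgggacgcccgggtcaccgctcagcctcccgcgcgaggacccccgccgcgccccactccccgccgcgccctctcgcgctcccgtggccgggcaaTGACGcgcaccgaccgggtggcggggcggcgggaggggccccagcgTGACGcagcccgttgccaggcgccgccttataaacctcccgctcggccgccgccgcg
Bhlhe41, chr6:145865371-145865670, minus strand: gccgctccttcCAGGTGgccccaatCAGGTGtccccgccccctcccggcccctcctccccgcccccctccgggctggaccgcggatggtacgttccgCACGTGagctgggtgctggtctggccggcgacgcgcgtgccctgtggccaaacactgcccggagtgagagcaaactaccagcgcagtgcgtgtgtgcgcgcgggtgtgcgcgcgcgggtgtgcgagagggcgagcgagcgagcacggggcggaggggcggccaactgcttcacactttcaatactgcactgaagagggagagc
Zeb2, chr2:45117393-45117692, minus strand: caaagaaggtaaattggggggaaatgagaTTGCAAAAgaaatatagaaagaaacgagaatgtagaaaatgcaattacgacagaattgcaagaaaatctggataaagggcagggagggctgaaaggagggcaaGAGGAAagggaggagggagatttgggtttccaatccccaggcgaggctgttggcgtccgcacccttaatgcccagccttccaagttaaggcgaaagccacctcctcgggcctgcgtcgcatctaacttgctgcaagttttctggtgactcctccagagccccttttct
The Cebpa window held no match to any of the 8 strings. The Cebpb window held TGACG 3 times, at positions -180, -53 and -7 from the start site, the first of them on the opposite strand. The Bhlhe41 window held the palindromic E-box at -153, the string that BHLHE40 and BHLHE41 themselves are known to bind, and CACCTG at -239 and -225 on the opposite strand. In the Zeb2 window the C/EBP string stood at -221 and the PU.1 core at -118. One of the 3 Mitf windows held the complete CRE, at -153. Of 32817 promoter windows of the same length, 7.15% held CACGTG, 20.2% held CACCTG, 28.3% held GAGGAA, 40.7% held TTNCNNAA, 20.8% held TGACG, 1.79% held TGACGTCA, 5.82% held GGGNNTTCC and 7.81% held TGANTCA. A match is a string and not a bound site.

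Library totals were 11638273 to 16478616 counts in RAW264.7 cells and 17121240 to 22873094 in BMDMs. One library stood apart from its group: counts of RAW264.7 knockout PBS replicate 1 differed from those of the other 2 with chi-squares that were 80.3 and 81.1 times their degrees of freedom (1 would be sampling noise), whereas those 2 differed by 2.28 and other RAW264.7 pairs by 1.84 to 2.72. In BMDMs the 3 wild type LPS libraries differed from one another more than those of other groups, by 8.50 and 10.4 for replicate 1 against the others and 4.76 between those, beside 1.76 to 2.68 for other BMDM pairs. For the 9 factors, many results that rest on RAW264.7 knockout PBS replicate 1 are also given without it. The shares of the C/EBP genes, the summed markers and the related and target genes are given only with it. Olfml3 itself, at 0.53 to 0.65 FPKM in wild type BMDMs with PBS, was at 0.01 to 0.03 FPKM in the knockout. In RAW264.7 cells it went against the labels, with 0.15 to 0.19 FPKM in wild type and 0.65 to 1.19 FPKM in the libraries labelled knockout with PBS, and with 0.13 to 0.29 against 18.3 to 18.9 FPKM with LPS. Directions below therefore follow the labels. Of 8 macrophage markers, all were above a mean of 1 FPKM in BMDMs and 7 in RAW264.7 cells, where Mertk was at 0 in every library. Neutrophil markers summed to at most 8.61 FPKM in any library. In bulk RNA, fewer cells of a type and less RNA per cell cannot be told apart.

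Values are FPKM, fragments per kilobase of exon and per unit of library depth, as deposited. A gene is called where limma on log2(FPKM + 0.1), fitted over the 12 libraries of a cell type, gave a Benjamini-Hochberg adjusted p under 0.05 over all genes tested and a fold change of at least 1.5. Log2 fold changes are on that log2(FPKM + 0.1) scale, with their standard error (SE).

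At rest the 2 cell types held the same factors at very different levels, which are set side by side without a test because the tables were made separately. In wild type BMDMs with PBS, Spi1 (82.3 ± 1.68 FPKM, SD, n = 3) and Maf (80.2 ± 1.15) stood highest and their libraries overlapped. Cebpa followed at 56.7 ± 2.00, Zeb2 at 29.1 ± 0.27, Mitf at 16.3 ± 0.41, Cebpb at 11.7 ± 1.11, Bhlhe41 at 10.3 ± 0.37, Bhlhe40 at 9.03 ± 0.50 and Cebpd at 1.56 ± 0.23 FPKM. Of these neighbours, only Spi1 and Maf, and Cebpb and Bhlhe41, overlapped.

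Wild type RAW264.7 cells with PBS had 148 ± 4.03 FPKM of Spi1 and 47.7 ± 5.33 of Cebpb, and then 13.1 ± 1.16 of Cebpa, 12.2 ± 0.68 of Bhlhe40, 6.54 ± 0.17 of Mitf, 5.27 ± 0.34 of Cebpd, 5.12 ± 0.13 of Zeb2 and 3.85 ± 0.10 of Bhlhe41. Here Cebpa overlapped Bhlhe40 and Cebpd overlapped Zeb2. The line thus had more Cebpb than Cebpa, and the primary cells more Cebpa than Cebpb. Maf was all but missing from the line: it had 10 counts in the 12 RAW264.7 libraries together, and was at 0 in all 6 labelled knockout. Fewer than 3 counts in a library cannot be told from 0 here, and Maf reached 3 only in the wild type libraries with LPS. By limma the labelled knockout with LPS differed from wild type by -0.34 (adjusted p = 0.00819), and LPS in wild type from PBS by 0.29 (adjusted p = 0.0117). Both were under 1.5-fold, and both were called with a pseudocount of 0.01. With so few counts, no change of Maf is described in RAW264.7 cells.

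**Figure D1:**
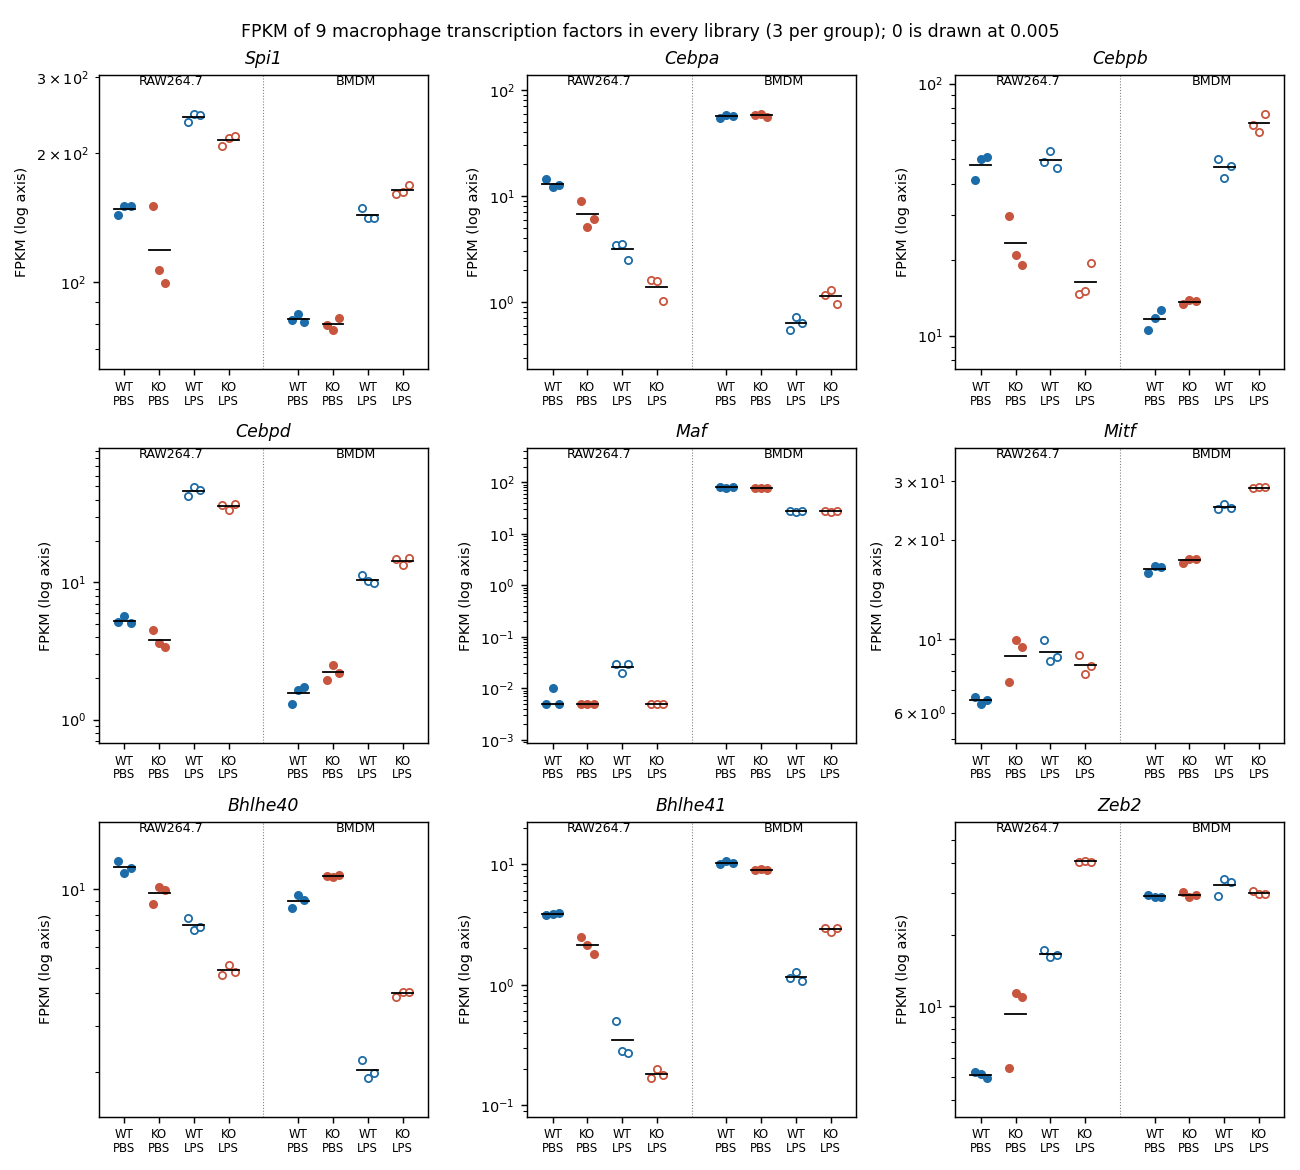
FPKM of the 9 genes in each library (y axis, log scale that differs between panels; values under 0.005, zeros included, are drawn at 0.005), by group, for RAW264.7 cells on the left and BMDMs on the right of each panel; each point is 1 library and each bar the mean of 3, with wild type in blue and knockout in red, filled for PBS and open for LPS. Cebpa dropped from 54.4 to 58.2 FPKM to 0.54 to 0.72 FPKM with LPS in wild type BMDMs, whereas Zeb2 stayed at 28.9 to 34.2 FPKM there and rose from 4.98 to 5.24 FPKM to 16.2 to 17.1 FPKM in wild type RAW264.7 cells.

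In wild type BMDMs, 4 h of LPS raised Spi1, Cebpb, Cebpd and Mitf and lowered Cebpa, Maf, Bhlhe40 and Bhlhe41, while Zeb2 was not called. Of the 26973 genes tested in this comparison 7.94% were called higher and 32.5% lower. Among genes with a mean of at least 1 FPKM these shares were 12.7% and 55.5%. With 68.2% of such genes called in one direction or the other, a call by itself does not set the factors apart. The median log2 fold change of those genes was -0.73, and the 9 factors had a median of 0.15 beside -0.30 over all genes tested. The same 8 factors were called, in the same directions, in knockout BMDMs, where 8.02% of genes were called higher and 30.9% lower; the factors' median was 0.02 beside -0.28.

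The C/EBP genes moved apart. Cebpa stood at 54.4, 58.2 and 57.4 FPKM in wild type BMDMs with PBS and at 0.54, 0.72 and 0.64 with LPS, the latter resting on 32, 42 and 38 counts. Knockout BMDMs had 57.7, 60.0 and 55.8 FPKM with PBS and 1.17, 1.3 and 0.95 with LPS. Every LPS library lay far below every PBS library: Cebpa fell 77.8-fold in wild type (log2 fold change -6.28, SE 0.11, adjusted p = 7.68e-11) and 47.0-fold in knockout (-5.55, adjusted p = 1.59e-10). Cebpb, by contrast, went from 10.5, 11.8 and 12.7 FPKM to 50.3, 42.3 and 47.2 in wild type and from 13.4, 13.8 and 13.7 to 68.4, 64.0 and 76.0 in knockout. With no overlap between PBS and LPS, it rose by 1.99 (SE 0.09, adjusted p = 3.27e-08) and 2.34 on the log2 scale. Cebpd rose from 1.3, 1.65 and 1.74 to 11.3, 10.2 and 9.91 FPKM in wild type (2.68, SE 0.12, adjusted p = 2.75e-08) and from 1.94, 2.52 and 2.17 to 14.7, 13.4 and 15.0 in knockout (2.65).

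Spi1, which overlapped Maf as the most abundant at rest, rose further. Its levels of 81.8, 84.1 and 80.8 FPKM in wild type BMDMs became 148.8, 141.3 and 140.9 with LPS, and 79.7, 77.2 and 82.4 in knockout became 160.2, 162.6 and 168.5. The log2 fold changes were 0.80 (SE 0.05, adjusted p = 1.65e-07) and 1.04 (adjusted p = 3.05e-08). Mitf rose less, from 15.9, 16.6 and 16.5 FPKM to 24.7, 25.7 and 25.0 in wild type (0.62, SE 0.04, adjusted p = 4.14e-07) and from 17.0, 17.5 and 17.4 to 28.6, 28.8 and 28.8 in knockout (0.73).

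Maf and the BHLHE pair fell. Maf was at 80.1, 79.1 and 81.4 FPKM in wild type BMDMs with PBS and at 27.8, 27.0 and 27.5 with LPS, and in knockout at 79.4, 77.9 and 78.1 and then at 27.6, 27.1 and 27.9. The log2 fold changes were -1.54 (SE 0.04, adjusted p = 4.78e-10) and -1.51, to levels at which the genotypes overlapped. Bhlhe40 went from 8.49, 9.49 and 9.1 to 2.22, 1.9 and 1.97 FPKM in wild type (-2.10, SE 0.06, adjusted p = 1.94e-09) and from 11.3, 11.2 and 11.4 to 3.87, 4.05 and 4.05 in knockout (-1.48). Bhlhe41 went from 9.98, 10.7 and 10.2 to 1.14, 1.27 and 1.08 in wild type (-3.04, SE 0.06, adjusted p = 1.56e-10) and from 8.89, 9.15 and 8.87 to 2.93, 2.75 and 2.97 in knockout (-1.60). For both genes wild type with LPS was the lowest of the 4 groups and did not overlap knockout with LPS.

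Zeb2 was the steady one in BMDMs on the FPKM scale, with 29.4, 28.9 and 28.9 FPKM in wild type with PBS, 29.2, 34.2 and 33.5 with LPS, and 30.4, 28.9 and 29.3 and then 30.4, 29.7 and 29.7 in knockout. All 4 groups formed 1 chain of overlapping values, and neither log2 fold change was called (0.15, 95% interval 0.01 to 0.28, adjusted p = 0.0689, and 0.02, interval -0.12 to 0.16). The median gene fell, and with libraries scaled by the median ratio of genes, Zeb2 was called higher with LPS in both genotypes (0.95 and 0.71), as it was by edgeR and DESeq2, and Maf (-0.74 and -0.82), Bhlhe40 (-1.32 and -0.79) and Bhlhe41 (-2.27 and -0.93) stayed lower by smaller amounts. On that scale Spi1 rose by 1.61 and 1.73 and Mitf by 1.42 and 1.41. No called factor turned direction.

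**Figure D2:**
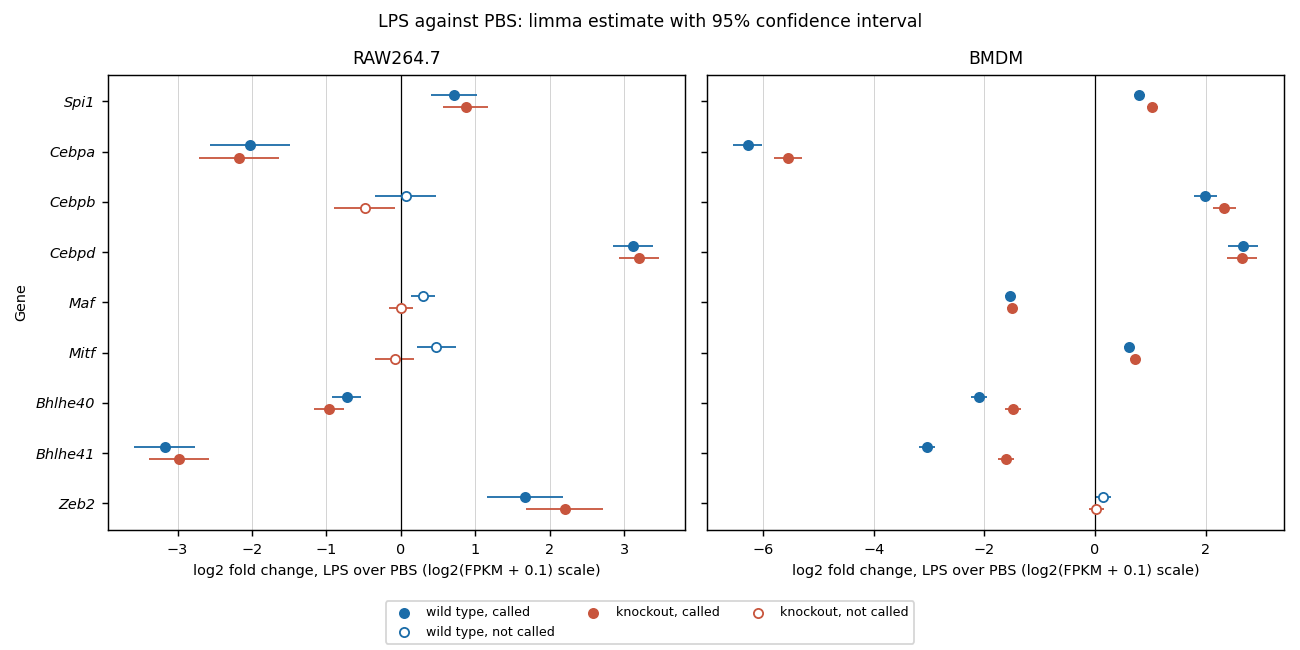
Log2 fold change with LPS (x axis, on log2(FPKM + 0.1), with 95% intervals) of the 9 genes in wild type (blue) and knockout (red), for RAW264.7 cells and BMDMs, whose axes differ; filled points are called. Cebpa lies at -6.28 and -5.55 in BMDMs and at -2.03 and -2.17 in RAW264.7 cells, while Cebpb lies at 1.99 and 2.34 in BMDMs and at 0.06 and -0.49 in RAW264.7 cells.

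In wild type RAW264.7 cells LPS raised Spi1, Cebpd and Zeb2 and lowered Cebpa, Bhlhe40 and Bhlhe41. Of the 26740 genes tested 5.8% were called higher and 12.5% lower; among genes with a mean of at least 1 FPKM these shares were 9.19% and 23.4%, and their median log2 fold change was -0.21. The same 6 factors were called in the same directions in the cells labelled knockout, where 7.45% of genes were called higher and 14.6% lower, and without knockout PBS replicate 1 these were still 6. The factors' medians were 0.29 and -0.08, beside -0.05 and -0.07 over all genes.

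Cebpd gave the largest rise of the 9 in this line. It went from 5.12, 5.66 and 5.02 FPKM to 42.3, 49.4 and 47.4 in wild type and from 4.52, 3.6 and 3.36 to 36.4, 33.4 and 37.4 in the labelled knockout. The log2 fold changes were 3.11 (SE 0.12, adjusted p = 6.62e-08) and 3.20 (adjusted p = 3.84e-08; 3.32 without replicate 1). Cebpb did not follow it: wild type held 41.6, 50.2 and 51.3 FPKM with PBS and 48.9, 54.1 and 46.3 with LPS, which overlapped (0.06, 95% interval -0.34 to 0.47, adjusted p = 0.932). In the labelled knockout it was at 29.8, 20.9 and 19.1 FPKM with PBS and 14.6, 15.1 and 19.5 with LPS, overlapping as well (-0.49, adjusted p = 0.0759; -0.30 without PBS replicate 1, and called lower, down to -0.62, without replicate 3 of either group). Cebpa fell from 14.4, 12.1 and 12.8 to 3.44, 3.56 and 2.47 FPKM in wild type (-2.03, SE 0.24, adjusted p = 0.000141) and from 8.98, 5.14 and 6.02 to 1.6, 1.58 and 1.02 in the labelled knockout (-2.17; -1.94 without replicate 1).

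Spi1 rose from 143.6, 150.7 and 150.5 FPKM to 236.4, 246.9 and 245.7 in wild type (0.71, SE 0.14, adjusted p = 0.00321), and from 150.5, 106.7 and 99.6 to 207.6, 216.2 and 218.7 in the labelled knockout (0.87, adjusted p = 0.000766; 1.05 without replicate 1). Zeb2, steady in BMDMs on the FPKM scale but not with median-ratio scaling, rose here from 5.24, 5.15 and 4.98 to 17.1, 16.2 and 16.4 FPKM in wild type (1.67, SE 0.23, adjusted p = 0.000381). In the labelled knockout it rose from 5.48, 11.3 and 10.9 to 40.4, 41.0 and 40.7 (2.20, adjusted p = 4.73e-05; 1.86 without replicate 1). Of the 3 PBS libraries of that group, replicate 1 alone sat near the wild type level of Zeb2 and of Spi1.

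Both BHLHE genes fell. Bhlhe41 went from 3.77, 3.83 and 3.96 to 0.5, 0.28 and 0.27 FPKM in wild type (-3.17, SE 0.18, adjusted p = 1.01e-06) and from 2.5, 2.15 and 1.81 to 0.17, 0.2 and 0.18 in the labelled knockout (-2.98), the LPS values resting on 13 to 43 counts. Bhlhe40 went from 12.9, 11.5 and 12.1 to 7.75, 6.96 and 7.17 FPKM in wild type (-0.73, SE 0.09, adjusted p = 0.000164) and from 8.81, 10.2 and 9.95 to 4.69, 5.15 and 4.82 in the labelled knockout (-0.97). Without PBS replicate 1 the changes in the labelled knockout were -2.87 for Bhlhe41 and -1.03 for Bhlhe40. Mitf passed the p threshold in wild type but not the fold, moving from 6.7, 6.37 and 6.56 to 9.97, 8.62 and 8.84 FPKM (0.47, adjusted p = 0.0141), and its groups overlapped in the labelled knockout, with 7.4, 9.92 and 9.45 and then 8.97, 7.84 and 8.3 FPKM (-0.08). With median-ratio scaling Mitf was called higher in wild type (0.71) and Bhlhe40 was no longer called (-0.49), and edgeR and DESeq2 gave the same calls.

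The Olfml3 knockout left the 9 factors without a call in resting BMDMs. By limma 0 of 9 were called, with 4 of 9 at an unadjusted p under 0.05, and edgeR and DESeq2 on counts also gave 0; 0.901% of genes were called higher and 0.905% lower. The factors' median log2 fold change was 0.03 beside 0.01 over all genes. By limma Bhlhe40 alone passed the adjusted p, at 11.3 ± 0.10 against 9.03 ± 0.50 FPKM (1.25-fold, adjusted p = 0.0243). Bhlhe41 was at 8.97 ± 0.16 in knockout against 10.3 ± 0.37 FPKM (-0.19, adjusted p = 0.162), with no overlap. By edgeR and DESeq2, Cebpd (0.47 and 0.46) and Bhlhe41 (-0.24 in both) passed the adjusted p too. By DESeq2 Maf (-0.08) did as well, and each of these was under 1.5-fold. Cebpd was at 2.21 ± 0.29 against 1.56 ± 0.23 FPKM (0.48, SE 0.12, adjusted p = 0.0669), with no overlap between the genotypes. For Cebpa (0.03, interval -0.23 to 0.29), Maf (-0.03, interval -0.12 to 0.05), Spi1 (-0.05, interval -0.15 to 0.06) and Zeb2 (0.02, interval -0.11 to 0.16) the difference was bounded well inside 1.5-fold.

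With LPS 3 factors were higher in knockout than in wild type BMDMs: Cebpa, Bhlhe40 and Bhlhe41, all of them among the 4 that LPS had lowered. Of all genes tested 3.23% were called higher and 1.53% lower. Among genes with a mean of at least 1 FPKM these shares were 5.94% and 2.40%. The factors' median was 0.45 beside 0.04 over all genes, and the median of genes with a mean of at least 1 FPKM was 0.14. Bhlhe41 was 2.36-fold higher (log2 fold change 1.24, SE 0.06, adjusted p = 7.17e-06), Bhlhe40 1.92-fold (0.94, SE 0.06, adjusted p = 2.57e-05) and Cebpa 1.69-fold (0.76, SE 0.11, adjusted p = 0.0016). For each, all 3 knockout libraries lay above all 3 of wild type. Cebpb came just short of the fold at 1.49 (0.58, adjusted p = 0.0022), and was called in 4 of the 6 fits that left out 1 library, among them that without wild type LPS replicate 1 (0.63). Cebpd (0.45, adjusted p = 0.0294), Spi1 (0.19, adjusted p = 0.0198) and Mitf (0.19, adjusted p = 0.00921) passed the p threshold at smaller folds, whereas Maf differed by 0.00 (interval -0.08 to 0.09) and Zeb2 by -0.10 (adjusted p = 0.338). With median-ratio scaling the calls of Bhlhe41 (1.11), Bhlhe40 (0.80) and Cebpa (0.63) stood, and that of Cebpa was lost with a pseudocount of 1. The smaller differences moved on that scale: Cebpd (0.30), Spi1 (0.03) and Mitf (0.04) no longer passed the p threshold, whereas Maf (-0.15) and Zeb2 (-0.26) passed it as lower, by less than 1.5-fold.

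The LPS response itself differed between the BMDM genotypes for the same 3 genes. The genotype by LPS interaction was 1.44 for Bhlhe41 (SE 0.09, adjusted p = 4.17e-05), 0.62 for Bhlhe40 (SE 0.09, adjusted p = 0.00409) and 0.73 for Cebpa (SE 0.16, adjusted p = 0.0287), each a smaller fall in knockout. Of all genes 1.89% were called higher and 1.02% lower in this test. Among genes with a mean of at least 1 FPKM these shares were 3.83% and 1.59%. The calls of Cebpa and Bhlhe40 were the less firm. With median-ratio scaling the values were 0.65 and 0.52 and only Bhlhe41 (1.35) was called. Cebpa was called by edgeR and DESeq2 (0.73 and 0.72). Bhlhe40 passed the adjusted p by edgeR (0.55, adjusted p = 5.6e-05) and DESeq2 (0.54, adjusted p = 2.2e-05), but was under 1.5-fold and so not called. Cebpa was not called in 9 of the 12 limma fits that left out 1 library (0.63 to 0.84 over them, adjusted p 0.0118 to 0.0693). For Spi1 the interaction was 0.23 (adjusted p = 0.0736). The BHLHE pair also traded places: in wild type with PBS Bhlhe41 exceeded Bhlhe40 (log2 ratio 0.19 ± 0.04, SD, n = 3), while in knockout the ratio was -0.33 ± 0.04. With LPS it was -0.80 ± 0.20 in wild type and -0.47 ± 0.08 in knockout.

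**Figure D3:**
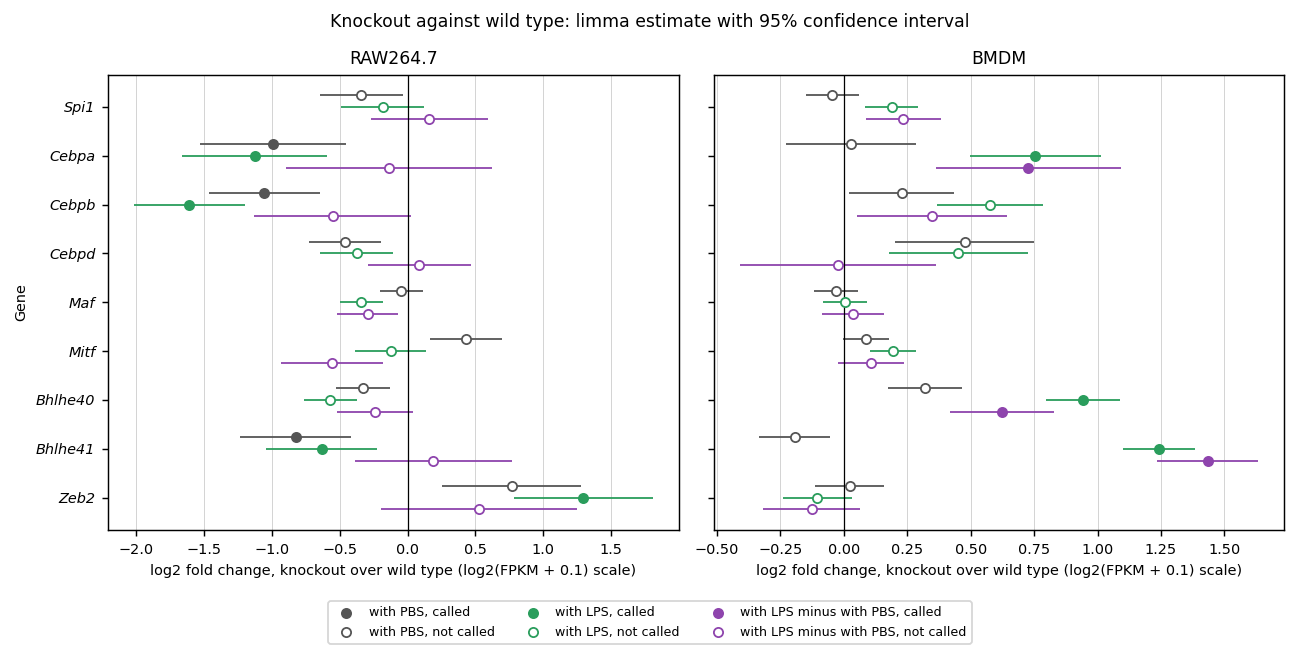
Log2 fold change of knockout against wild type (x axis, on log2(FPKM + 0.1), with 95% intervals) of the 9 genes with PBS (grey) and with LPS (green), for RAW264.7 cells and BMDMs. The genotype by LPS interaction, the value with LPS minus that with PBS, is drawn in purple. Filled points are called. With LPS, Bhlhe41, Bhlhe40 and Cebpa lie at 1.24, 0.94 and 0.76 in BMDMs and at -0.63, -0.57 and -1.13 in RAW264.7 cells, on opposite sides of 0.

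In RAW264.7 cells the libraries labelled knockout had less Cebpb, Cebpa and Bhlhe41 than wild type in both conditions. With PBS these 3 were called lower, where 4.79% of all genes tested were called higher and 3.77% lower, and the factors' median was -0.34 beside 0.02. Among genes with a mean of at least 1 FPKM these shares were 7.20% and 5.97%. Cebpb was 2.08-fold lower (-1.05, SE 0.18, adjusted p = 0.00579), Cebpa 1.98-fold (-0.99, SE 0.24, adjusted p = 0.0292) and Bhlhe41 1.77-fold (-0.82, SE 0.18, adjusted p = 0.0203), each with no overlap between the groups. Leaving out any of the other 5 libraries ended the calls of Cebpa (-1.22 to -0.82 over all 6 such fits, adjusted p 0.00264 to 0.109) and Bhlhe41 (-0.93 to -0.71, adjusted p 0.00579 to 0.0798). Without replicate 1 of the labelled knockout the falls were 1.25, 1.22 and 0.93 on the log2 scale, and Zeb2 was called higher too (1.10, against 0.77 and an adjusted p of 0.0568 with that library). Mitf was higher (0.43, adjusted p = 0.0437) and Cebpd (-0.46, adjusted p = 0.0374) and Bhlhe40 (-0.33, adjusted p = 0.0408) were lower by less than 1.5-fold. Without replicate 1 these values were 0.56, -0.58 and -0.26. Spi1, whose libraries overlapped, differed by -0.34 (adjusted p = 0.125), and by -0.52 without replicate 1.

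With LPS, Cebpb (-1.61, SE 0.18, adjusted p = 0.000323), Cebpa (-1.13, SE 0.24, adjusted p = 0.00919) and Bhlhe41 (-0.63, SE 0.18, adjusted p = 0.0319) were again called lower, and Zeb2 was called higher (1.29, SE 0.23, adjusted p = 0.00396). Of all genes 9.73% were called higher and 7.6% lower, and the factors' median was -0.37 beside 0.00. Among genes with a mean of at least 1 FPKM these shares were 14.6% and 13.5%. Cebpb was 3.04-fold lower, with every library labelled knockout below 20 FPKM and every wild type library above 46 FPKM. Zeb2 was 2.45-fold higher, at 40.7 ± 0.33 against 16.6 ± 0.51 FPKM (SD, n = 3). Bhlhe40, at -0.57 (adjusted p = 0.00197), was just under 1.5-fold, and it was called lower with median-ratio scaling (-0.59), by edgeR (-0.60) and DESeq2 (-0.59) and in 2 of the 6 fits that left out 1 library. Spi1 (-0.18, adjusted p = 0.387) and Mitf (-0.13, adjusted p = 0.501) were not called, and Cebpd was 1.3-fold lower (-0.37, adjusted p = 0.0469). The call of Bhlhe41 rested on few counts and was lost with a pseudocount of 1 and in 4 of the 6 fits that left out 1 library (-0.75 to -0.41 over them).

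The summed level of the macrophage markers differed with the label in this line. The 8 genes summed to 3344 to 3402 FPKM in wild type with PBS and 1145 to 1420 in the labelled knockout, and to 3880 to 4013 and 1215 to 1278 FPKM with LPS, with 4 of 7 tested markers called lower in each condition. Of all genes 3.77% were called lower with PBS and 7.6% with LPS. Among those with a mean of at least 1 FPKM these shares were 5.97% and 13.5%. The 6 dendritic cell markers, of which Siglech alone passed 1 FPKM, summed to 1.08 to 1.36 and 8.66 to 10.1 FPKM with PBS and to 0.68 to 0.78 and 2.75 to 2.81 FPKM with LPS. What part these play in the differences of the factors was not tested. In BMDMs the macrophage markers summed to 14853 to 15277 FPKM in wild type and 16620 to 17811 in knockout after PBS. After LPS these sums were 12369 to 12637 and 12875 to 13153. Such a sum is weighted to its most abundant genes. Taken gene by gene, 0 of the 8 markers were called higher in knockout BMDMs and 1 lower, in either condition. The median log2 fold change of the 8 was -0.13 after PBS and -0.12 after LPS.

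In RAW264.7 cells the genotype by LPS interaction was called for 0 of 9 factors by limma, with 2 of 9 (Maf and Mitf) at an unadjusted p under 0.05, and for 0 by edgeR and DESeq2; 0.905% of genes were called higher and 1.04% lower. Mitf came closest at -0.56 (adjusted p = 0.184) and was called without replicate 1 (-0.68). For Cebpb the interaction was -0.55 (interval -1.13 to 0.02) and for Zeb2 0.53 (interval -0.20 to 1.25). Without replicate 1 these were -0.36 and 0.19.

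Set side by side, the knockout comparison with LPS put Cebpa, Cebpb, Cebpd, Bhlhe40 and Bhlhe41 on opposite sides in the 2 cell types, with all libraries of a genotype on one side in each. Such separation was seen for 73.1% of genes with a mean of at least 1 FPKM in RAW264.7 cells and 56.4% in BMDMs. By itself it does not set the factors apart. Cebpb was at -1.61 in RAW264.7 cells and 0.58 in BMDMs, and Cebpa at -1.13 and 0.76. Spi1 was at -0.18 and 0.19, but turned to 0.05 in RAW264.7 cells with equal FPKM sums and was at 0.03 in BMDMs with median-ratio scaling, so no direction is read for it. These differences between cell types were not tested, and in RAW264.7 cells the label and Olfml3 itself disagree.

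The 3 C/EBP genes were also read as shares of their summed FPKM within each library, which no scaling of libraries can alter. In wild type BMDMs with PBS, Cebpa made up 81.1 ± 1.15% of the sum (SD, n = 3), Cebpb 16.7 ± 0.93% and Cebpd 2.23 ± 0.24%. With LPS the shares were 1.11 ± 0.24%, 80.7 ± 1.17% and 18.2 ± 1.03%. The sum, unlike the shares, depends on the scaling of the libraries. It was 69.9 ± 3.19 FPKM with PBS and 57.7 ± 4.41 with LPS as deposited, and 54.8 ± 2.68 and 79.0 ± 6.0 with median-ratio scaling.

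Knockout BMDMs had shares near these, 78.5 ± 0.57%, 18.5 ± 0.52% and 3.00 ± 0.32% with PBS and 1.36 ± 0.31%, 81.7 ± 0.84% and 16.9 ± 0.59% with LPS, at sums of 73.7 ± 2.40 and 85.0 ± 6.64 FPKM (55.9 ± 1.67 and 104.3 ± 7.68 with median-ratio scaling). The log2 ratio of Cebpa to Cebpb went from 2.29 ± 0.10 to -6.21 ± 0.33 in wild type and from 2.08 ± 0.05 to -5.94 ± 0.36 in knockout. With LPS the 2 genotypes overlapped in this ratio, and with PBS every knockout library lay below every wild type library.

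In RAW264.7 cells Cebpb led from the start, with 72.1 ± 3.44% beside 19.9 ± 3.11% for Cebpa and 7.99 ± 0.63% for Cebpd in wild type with PBS. LPS brought in Cebpd: its share became 46.7 ± 2.34%, beside 50.1 ± 1.79% for Cebpb and 3.18 ± 0.55% for Cebpa, and the sum was 66.0 ± 4.37 FPKM with PBS and 99.3 ± 6.79 with LPS. In the labelled knockout the sum was 33.8 ± 8.27 FPKM with PBS and 53.5 ± 4.03 with LPS, and Cebpd took the largest share with LPS, 66.8 ± 2.32% against 30.5 ± 2.97% for Cebpb. With PBS its shares of 19.7 ± 2.10% Cebpa and 68.8 ± 1.76% Cebpb overlapped those of wild type, while the share of Cebpd, 11.5 ± 0.91%, lay above wild type in every library.

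**Figure D4:**
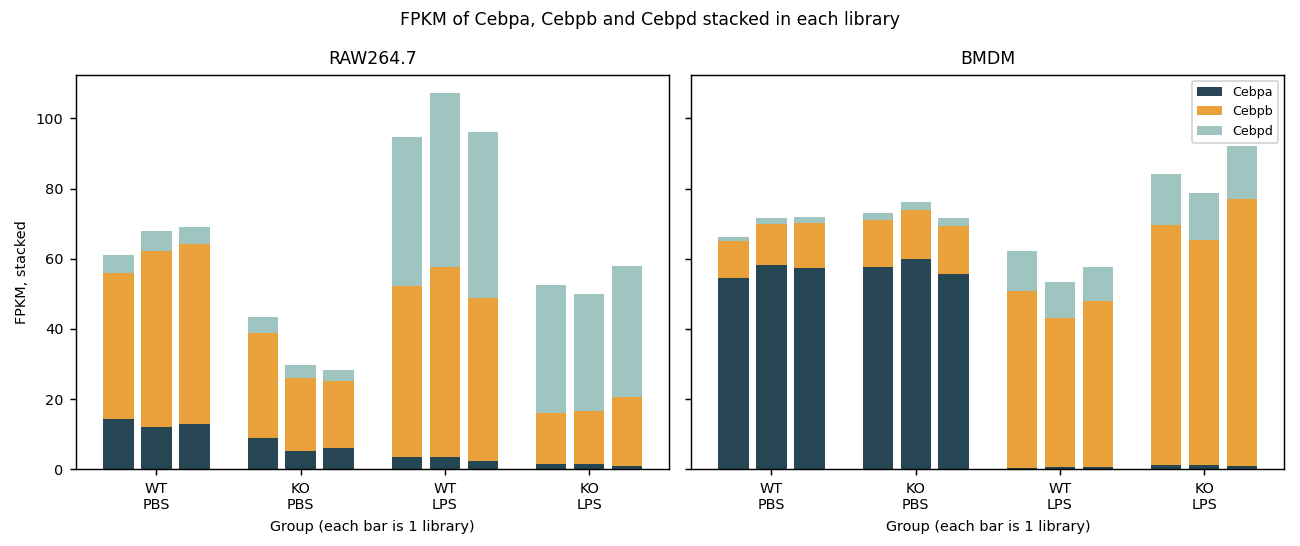
FPKM of Cebpa, Cebpb and Cebpd (y axis, stacked) in each of the 24 libraries, 3 bars to a group, for RAW264.7 cells and BMDMs. Cebpa fills most of each bar in BMDMs with PBS (81.1% in wild type) and a thin line with LPS (1.11%), and in RAW264.7 cells Cebpd grows from 7.99% to 46.7% of the bar with LPS in wild type.

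The relatives of the 9 factors were followed from lists of 4 C/EBP, 3 MiT/TFE, 4 MAF, 10 ETS and 4 ZEB and SNAI genes. In wild type BMDMs with LPS, 3 of 4 C/EBP relatives fell: Cebpg, a partner that lacks an activation domain, from 16.3 to 3.03 FPKM (-2.39), Cebpz (-1.50) and Ddit3 (-1.45). The list's median was -1.48 beside -0.30 for all genes. In this comparison 7.94% of all genes were called higher and 32.5% lower. Among those with a mean of at least 1 FPKM these shares were 12.7% and 55.5%. The counts of this and the other lists are read beside such shares, and nothing is called particular to a list. In the MiT/TFE family Tfec, the macrophage-restricted member, rose from 4.99 to 20.4 FPKM (2.01), while Tfeb fell from 6.71 to 0.243 FPKM (-4.31) and Tfe3 by 1.45. Mitf and Tfec rose while Tfeb and Tfe3 fell.

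Of 3 MAF relatives tested in BMDMs, the small MAF genes Maff (1.31 to 9.35 FPKM, 2.77) and Mafk (8.48 to 39.5 FPKM, 2.21) rose with LPS, and Mafg fell (-1.36). Among the ETS genes Etv6 (12.3 to 48.7 FPKM, 1.97) and Etv3 (1.83) rose with Spi1, and Fli1 (22.7 to 1.52 FPKM, -3.83), Ets1 (-3.26), Ets2 (-0.94) and Elf4 (-0.62) fell. Ets2 and Elf4 lay near the median of genes with a mean of at least 1 FPKM (-0.73), so their falls depend on the scaling of the libraries. Zeb1, the close relative of Zeb2, rose from 0.317 to 3.60 FPKM (3.16), the only one called of 3 ZEB and SNAI genes tested.

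In wild type RAW264.7 cells LPS again raised Maff (2.48) and Mafk (1.47) and lowered Tfeb (8.28 to 0.51 FPKM, -3.78). Of 9 ETS genes tested Etv3 (1.42), Ets2 (21.7 to 53.8 FPKM, 1.31) and Etv6 (1.21) rose, and Fli1 (-1.51) and Elf4 (-0.87) fell. In this comparison 5.8% of all genes were called higher and 12.5% lower. Among those with a mean of at least 1 FPKM these shares were 9.19% and 23.4%. Among C/EBP relatives, Cebpe (-1.85) and Cebpg (-0.71) fell with LPS in the labelled knockout. On the FPKM scale Ets2 thus moved down in BMDMs and up in RAW264.7 cells, a difference that was not tested. Its fall in BMDMs lay near the median of genes with a mean of at least 1 FPKM there (-0.73). No value with median-ratio scaling is given for it.

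**Figure D5:**
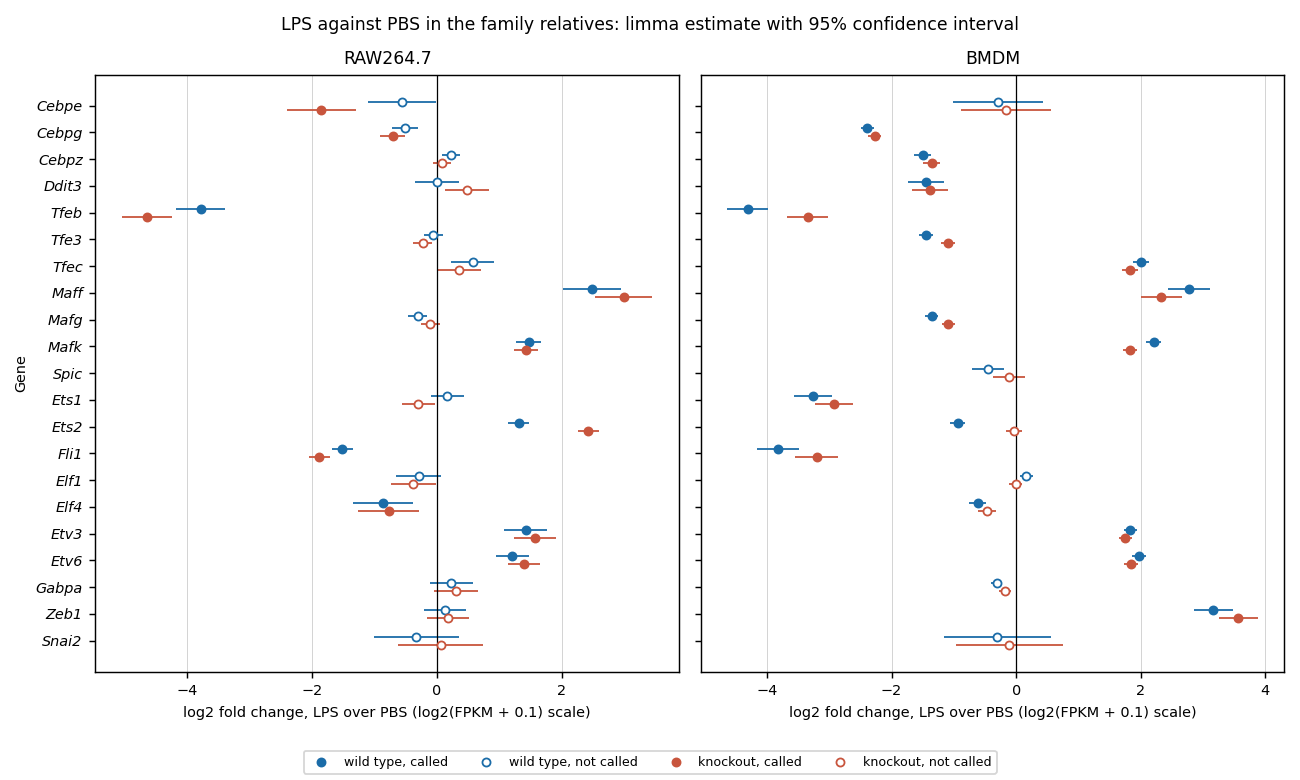
Log2 fold change with LPS (x axis, on log2(FPKM + 0.1), with 95% intervals) of 21 family relatives of the 9 factors with a mean of at least 1 FPKM in any group, in wild type (blue) and knockout (red) RAW264.7 cells and BMDMs; filled points are called. In wild type BMDMs Tfeb and Fli1 lie lowest, at -4.31 and -3.83, and Zeb1 and Maff highest, at 3.16 and 2.77.

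In BMDMs with LPS, Ets2 (12.1 against 6.13 FPKM, 0.96), Fli1 (0.63) and Tfeb (0.577 against 0.243 FPKM, 0.95) were called higher in knockout, where 3.23% of all genes were called higher and 1.53% lower. In RAW264.7 cells Ets2 was lower in the labelled knockout with PBS (4.18 against 21.7 FPKM, -2.35) and with LPS (22.7 against 53.8, -1.24), as were, with LPS, Cebpe (-1.36) and Tfeb (-1.03). Elf4 (0.87 and 0.97) and Elf1 (0.68 and 0.59) were higher in both conditions and Fli1 with PBS (0.84).

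Of 7 other genes of the helix-loop-helix and circadian group, 6 fell with LPS in wild type BMDMs, with a median of -1.77. There 32.5% of all genes, and 55.5% of those with a mean of at least 1 FPKM, were called lower. Among the 7, Dbp, an output gene of the clock, went from 5.88 to 0.11 FPKM, and Per1 (-3.55) and Nr1d1 (-1.72) fell too. Per1 (0.86), Nr1d1 (0.88) and Dbp (1.12) were higher in knockout than in wild type BMDMs with LPS, as Bhlhe40 and Bhlhe41 were. In wild type RAW264.7 cells Dbp alone passed (-1.99), and the labelled knockout had less Id1 with PBS (-2.77) and less Id1 (-2.16) and Nr1d1 (-2.12) with LPS.

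Among 21 other myeloid factors, 4 rose and 9 fell with LPS in wild type BMDMs, with a median of -0.46. These counts are read beside the 7.94% and 32.5% of all genes, and the 12.7% and 55.5% of genes with a mean of at least 1 FPKM, and nothing is called particular to the list. Irf8, a partner of PU.1, rose from 32.7 to 171 FPKM (2.38), and Lyl1 (21.3 to 0.383 FPKM, -5.47) and Myc (17.3 to 1.71, -3.27) were among those that fell. With LPS the BMDM knockout had less Irf8 (40.1 against 171 FPKM, -2.09) and more Myc (4.05 against 1.71, 1.19). In wild type RAW264.7 cells 3 rose and 8 fell, beside 5.8% and 12.5% of all genes (9.19% and 23.4% of those with a mean of at least 1 FPKM). Myc went up from 0.543 to 47.6 FPKM there and Lyl1 down from 103 to 12.9 FPKM. The labelled knockout of that line had more Runx3 (5.35 against 0.563 FPKM with PBS, 3.04). With PBS 2 of 21 were higher in it and 4 lower, beside 4.79% and 3.77% of all genes (7.20% and 5.97% of those with a mean of at least 1 FPKM).

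Genes known as targets of these factors moved unevenly. Their counts are read beside the shares of all genes. With LPS in wild type BMDMs 7.94% of all genes were called higher and 32.5% lower. Among those with a mean of at least 1 FPKM these shares were 12.7% and 55.5%. Of 14 receptor and macrophage genes under PU.1 and C/EBP control, 6 of which are also on the macrophage marker list, 4 rose and 3 fell with LPS in wild type BMDMs (median -0.06): Cd14, the LPS co-receptor, rose from 159 to 540 FPKM (1.76), and Tlr4 (-1.75) and Csf1r, the M-CSF receptor (372 to 139 FPKM, -1.42), fell. In the labelled RAW264.7 knockout with PBS 7 of the 14 were lower and 1 (Csf3r, 1.29) higher (median -0.38), among them Fcgr3 (-4.06), Lyz2, which encodes lysozyme (-2.72), and Cd14 (107 against 445 FPKM, -2.07). There 3.77% of all genes were called lower and 4.79% higher. Among those with a mean of at least 1 FPKM these shares were 5.97% and 7.20%. In BMDMs Fcgr1 was the one called lower in the knockout in both conditions (-1.15 and -0.64).

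Of 8 inflammatory genes known as C/EBP beta and delta targets, 7 rose with LPS in wild type of each cell type. Of all genes 7.94% were called higher with LPS in wild type BMDMs and 5.8% in wild type RAW264.7 cells. In BMDMs with LPS 5 of the 8 were higher in knockout, with a median of 0.89: Csf3 (2.08 against 0.243 FPKM, 2.69), Saa3 (174 against 72.3, 1.27), Lcn2 (1.21), Il1b (1.15) and Ptgs2 (0.62). There 3.23% of all genes, and 5.94% of those with a mean of at least 1 FPKM, were called higher. In RAW264.7 cells Csf3 (9.84 against 281 FPKM, -4.83), Lcn2 (-2.35) and Saa3 (-1.24) were lower in the labelled knockout with LPS and Il6 was higher (100.1 against 24.8 FPKM, 2.01).

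Of 10 osteoclast and lysosomal genes under MITF and TFE control, Acp5, the tartrate-resistant phosphatase (3.07 to 49.7 FPKM, 3.98), and Clcn7 (0.86) rose in wild type BMDMs with LPS, and Dcstamp (-2.30), Atp6v0d2 (-1.57), Ostm1 (-1.05) and Mcoln1 (-0.74) fell. The labelled RAW264.7 knockout had less Gpnmb (13.6 against 83.7 FPKM with PBS, -2.61), Dcstamp (-1.17) and Acp5 (-1.15). Of 4 genes known as MAF targets, Il10 rose (1.20 to 20.4 FPKM, 3.98) and C1qc fell (-0.61) with LPS in wild type BMDMs. The falls of Mcoln1 and C1qc lay near the median of genes with a mean of at least 1 FPKM (-0.73) and depend on the scaling of the libraries. Il10 was lower in the BMDM knockout with PBS (-0.63) and with LPS (-0.70), where Maf did not differ by a call.

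Genes whose pattern was most like each factor were found by Pearson's r over the 24 libraries of log2(FPKM + 0.1), centred on each cell type, among 9471 genes. The points share LPS exposure, depth and library, and the r values are descriptions. Spi1 was most like Prdx5 (0.992), Cebpa most like Cd3eap (0.995), Cebpb most like Ube2z (0.973) and Cebpd most like Relb (0.994), with Junb (0.992) and Tnip1 (0.991) next. Maf was most like Itpripl1 (0.989), Mitf like Notch2 (0.945) and Bhlhe40 like Tubb5 (0.981), while Bhlhe41 had an r of 0.979 with Gga2. The r of Maf with Itpripl1 came from BMDMs (0.997), since Maf was all but missing from RAW264.7 cells (0.77 there). That of Mitf with Notch2 was 0.85 in RAW264.7 cells and 0.98 in BMDMs. For Zeb2 the closest was Slfn10-ps at 0.991, which came from RAW264.7 cells. There r was 0.997, and it was -0.04 in BMDMs, where Zeb2 hardly varied on the FPKM scale.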

How the data were processed

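RNA-seq of 24 libraries (3 per group, 8 groups) was analysed from 1 table per cell type. Per the file headers, the authors deposited raw counts and FPKM for each library and gene. FPKM were recomputed from the deposited counts and lengths within 1% for 99.9% of 122438 RAW264.7 values and 99.5% of 123441 BMDM values with at least 50 counts. The aligner, counter and strand setting were not given in the sources used here, and the submitters' processing notes list mm10. Of 52073 matched genes 2.83% had the position given in the GENCODE M21 annotation of GRCm38 (96.8% had the same length), so positions were taken from that annotation. The tables' columns of gene descriptions and ontology terms were not used. Sequencers of 3 models are named for the series without saying which library used which.

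The study names limma, so the main test was limma 3.58.1 (R 4.3.3, default empirical Bayes) on log2(FPKM + 0.1), 1 fit per cell type over 12 libraries, with genes above 0 in any library (26740 and 26973), although counts were deposited. Called genes had a fold of at least 1.5 and a Benjamini-Hochberg adjusted p below 0.05, in 5 comparisons per cell type. edgeR 4.0.16 (quasi-likelihood) and DESeq2 1.42.0 on the counts, other pseudocounts, filters and scalings, fits of 2 groups alone, a replicate block and leaving out each library were alternatives. On simulated data with 200 genes changed 2-fold, limma recovered 90.5% at the RAW264.7 knockout against wild type and 85.5% at the BMDM one, with 12 and 18 false calls. edgeR recovered 99.5% and 99%, and DESeq2 99% and 97.5%, each with fewer false calls. The simulation changed only well-counted genes and held no LPS effect and no library that stood apart. The factors and the lists of relatives and targets were chosen with earlier results of these data known, and no list was tested as a set. Named genes were all 9 factors, Olfml3, up to 3 called genes per list and comparison with the largest change and a mean of at least 1 FPKM, list genes needed to spell out a count of 5 or fewer, and the 3 genes most correlated with each factor. Some genes that this rule or the lists would name are not reported here. Promoter sequences are from RefSeq. Total counts per library limit the precision of low genes, and intervals cover the spread between libraries. Replicates of a group were not duplicates: their counts differed beyond sampling noise.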

Additional observations from a re-analysis of the deposited data

Results flagged for a closer look

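In BMDMs the LPS response differed by genotype, in a test of the interaction, for 3 of the 9 factors. The difference, knockout minus wild type on the log2 scale, was 0.73 for Cebpa, 0.62 for Bhlhe40 and 1.44 for Bhlhe41, each a smaller fall in knockout. Over all genes 1.89% were called higher and 1.02% lower. With median-ratio scaling or a pseudocount of 1, only Bhlhe41 was called. By edgeR and DESeq2 Cebpa was called, and Bhlhe40 passed the adjusted p but was under 1.5-fold (0.55 and 0.54). Cebpa was not called in 9 of the 12 fits that left out 1 library.

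The knockout comparison went in opposite directions in the 2 cell types, with every library of one genotype above every library of the other in each. Such separation within a cell type was common among genes with a mean of at least 1 FPKM. Its share was 41.7% in RAW264.7 cells and 40.8% in BMDMs with PBS, and 73.1% and 56.4% with LPS. With PBS the log2 fold change in RAW264.7 cells minus that in BMDMs was -1.28 for Cebpb, -0.94 for Cebpd and -0.65 for Bhlhe40. With LPS it was -2.18 for Cebpb, -1.88 for Cebpa, -1.87 for Bhlhe41, -1.51 for Bhlhe40, -0.82 for Cebpd and -0.37 for Spi1. That of Spi1 depends on scaling, since its value in RAW264.7 cells turned to 0.05 with equal FPKM sums and that in BMDMs was 0.03 with median-ratio scaling. For Maf with LPS in wild type the arithmetic gave 1.84. Maf had 10 counts in the 12 RAW264.7 libraries together, too few for that value to be read as a difference. The others were not tested, since the 2 cell types were tabulated separately, and in RAW264.7 cells Olfml3 went against the labels.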

How the results depend on the processing

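The number of factors called was 3 with PBS and 4 with LPS for the RAW264.7 knockout comparison. The first became 1 in a fit of the 2 groups alone and 1 to 4 when each library was left out, and with the adjusted p alone the counts were 6 and 7 (leaving out a library gave 3 to 5 for the second). The RAW264.7 interaction gave 0, and 0 to 1 without a library (Mitf, without knockout PBS replicate 1). For BMDMs the knockout comparison with PBS went from 0 to 1 and that with LPS from 3 to 7 with the adjusted p alone, and the interaction from 3 to 1 with a pseudocount of 1 and to 1 with median-ratio scaling, and to 2 to 3 without a library. The LPS counts of 6, 6, 8 and 8 kept within 1.5 times under every alternative run.

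Over all genes the RAW264.7 knockout comparison with PBS had 2287 calls, 1474 with a pseudocount of 1, 997 in the 2 groups alone and 1288 to 5523 when a library was left out, the highest without knockout PBS replicate 1. That with LPS had 4636 and 3054 with a pseudocount of 1. The RAW264.7 interaction had 521 and 400 to 904. In BMDMs the counts of 487, 1285 and 786 (PBS, LPS, interaction) became 256, 439 and 402 with a pseudocount of 1 and 1116, 4804 and 1762 with the adjusted p alone. The share of calls that were higher moved with scaling: with equal FPKM sums from 56.0% to 72.5% (RAW264.7 knockout, PBS) and from 56.1% to 75.8% (LPS), and with median-ratio scaling from 31.7% to 49.7% and 33.8% to 51.7% (LPS in RAW264.7 wild type and knockout), 19.7% to 47.9% and 20.6% to 46.8% (the same in BMDMs), 67.9% to 43.4% (BMDM knockout with LPS) and 65.0% to 46.8% (BMDM interaction).

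By gene, the calls of Cebpa and Bhlhe41 in the RAW264.7 knockout comparison with PBS were lost without any 1 wild type PBS library or without knockout PBS replicate 2 or 3, and Zeb2 was gained without replicate 1 and by edgeR and DESeq2. Bhlhe40 lost its BMDM interaction call by edgeR and DESeq2 on the fold alone, since it passed the adjusted p in both. No called value changed sign. The causes were not tested. Of the genes most like Zeb2 over both cell types, r in BMDMs alone was -0.0378 for Slfn10-ps, 0.48 for Clcn5 and -0.13 for Ddx5. Leaving RAW264.7 knockout PBS replicate 1 out of the estimate of the spread, chosen after seeing the data, gave 4 factors (5108 genes) for the RAW264.7 knockout comparison with LPS and 6 (5155 genes) for LPS in wild type. Replicate numbers share only a label, since in no comparison did every same-numbered pair of libraries correlate above 0.1 in its deviations, and a replicate block changed no factor's call (3 still called in the RAW264.7 knockout comparison with PBS). Few counts limit Maf in RAW264.7 cells and Bhlhe41 with LPS.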
